A study of Mus musculus with 6 samples.

Results

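Spry1, Spry2, Spry4, Spred1, Spred2, Spred3, Etv4 and Etv5 were read as the rows of the deposited gene table that carry these symbols, 8 of 29872 rows. All 8 were among the 16221 genes with enough counts to be tested. They were compared between 3 CML libraries and 3 WT libraries of bulk mouse RNA. The CML libraries held mouse cells labelled as leukaemic stem cells of chronic myeloid leukaemia (CML) and the WT libraries held normal haematopoietic stem cells, both expanded ex vivo. Both groups came from untreated bone marrow on the C57BL/6 background, and both carry the sort label Lin-Sca1+cKit+CD150+. The oncogene, the allele or promoter behind the CML label, the ages of the animals, the culture medium with its cytokines, the order of sort and expansion, and any pooling of cells are not stated by these labels. Nothing in the labels ties the libraries of a group to separate animals or cultures, so p-values cover only library-to-library spread, possibly technical in origin.

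Sprouty and SPRED proteins are feedback inhibitors of signalling from receptor tyrosine kinases through RAS, RAF and MEK to the kinase ERK. Sprouty proteins act near the receptor, where they bind adaptors and the ubiquitin ligase CBL. SPRED proteins carry neurofibromin, a GTPase-activating protein of RAS, to the membrane. The genes of both families are themselves induced by ERK signalling in many cells, as are Etv4 and Etv5, ETS transcription factors of the PEA3 group that are repressed by CIC until ERK signalling removes it. In blood stem cells the receptor KIT is one of the inputs of the same cascade.

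In CML cells none of these inhibitor or PEA3 genes rose relative to WT cells, and 5 of the 8 fell. Levels are given as CPM, counts scaled to a common library size with TMM factors. Etv4, Spry1, Spry2 and Etv5 fell to between 0.19 and 0.45 of their WT level, and Spred1 to 0.70. Spry4, Spred2 and Spred3 did not pass the threshold, with folds of 0.52, 0.77 and 0.99 (edgeR quasi-likelihood test, Benjamini-Hochberg adjusted p under 0.05). Over all tested genes the same test called 17.4% in either direction, 7.2% lower in CML and 10.2% higher in CML. No member was called higher, none was higher at an unadjusted p under 0.05, and DESeq2 and limma-voom each called 0 higher. At an unadjusted p under 0.05, 7 members were lower, and DESeq2 and limma-voom called 6 and 5 lower. Over all 16221 tested genes DESeq2 called 1358 lower and 1640 higher, and limma-voom 1059 lower and 1554 higher. The share of all tested genes at an unadjusted p under 0.05 was not computed. The median log2 fold change was -1.05 over the 8 members and -0.0043 over all tested genes. A log2 fold change of -1 or lower was seen in 4 of the 8 members and in 2.05% of all tested genes. The members were chosen with earlier results of these data known. Setting their counts beside shares of all tested genes, here and below, is therefore description only.

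**Figure D1:**
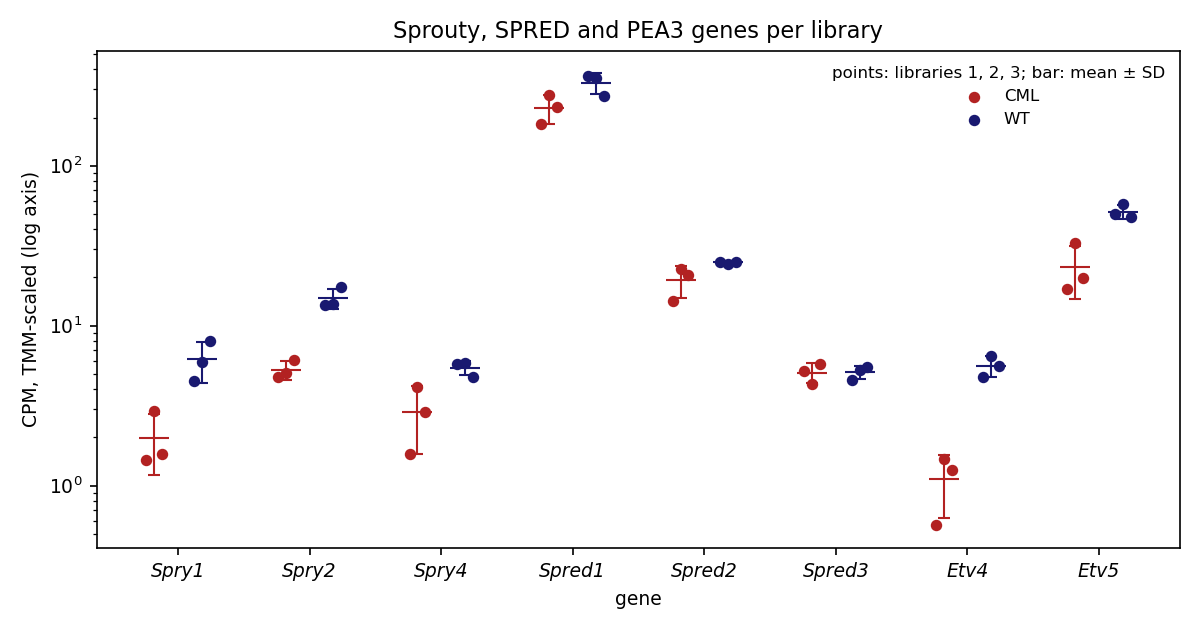
Scaled counts (CPM, TMM-scaled, log axis) of each of the 8 genes in every library; points are libraries, and bars are the mean ± SD of the 3 libraries of a group, CML in red and WT in dark blue. The CML points lie below every WT point for 6 genes and overlap the WT points for Spred1 and Spred3.

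Promoter sequence is set beside these values to show which letters precede the RefSeq starts of genes that fell and of genes that did not pass the test. RefSeq (GRCm38.p6) gave a start for Spry1, Spry2, Spred1, Spred2, Spred3 and Etv5, that is, 6 of the 8; the promoters of Spry4 and Etv4 were not analysed here. The 250 bases before each start were searched on both strands for 5 motifs. These were TGAATGAA and TGAATGGA (2 forms of the octamer bound by CIC), AGGAAGT (an ETS site of PEA3 type), TGANTCA (AP-1) and TTCNNNGAA (STAT). Other forms of the CIC octamer were not searched, so a window without a match to these letters may still hold one. None overlapped another in these windows. The sequences below are first the windows of the Sprouty genes that fell, which held no match to the 5 motifs as written. After them come 30-base stretches around the 2 matches found, both in SPRED genes that did not pass the test. Each reads from 5′ to 3′ on the sense strand of the gene, and capitals mark a match.
Spry1, chr3:37639697-37639946, plus strand: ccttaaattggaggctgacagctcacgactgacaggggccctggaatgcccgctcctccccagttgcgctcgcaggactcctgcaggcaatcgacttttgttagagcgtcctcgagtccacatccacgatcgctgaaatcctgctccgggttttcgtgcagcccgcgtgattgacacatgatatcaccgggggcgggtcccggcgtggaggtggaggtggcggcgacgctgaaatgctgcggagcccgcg
Spry2, chr14:105896820-105897069, minus strand: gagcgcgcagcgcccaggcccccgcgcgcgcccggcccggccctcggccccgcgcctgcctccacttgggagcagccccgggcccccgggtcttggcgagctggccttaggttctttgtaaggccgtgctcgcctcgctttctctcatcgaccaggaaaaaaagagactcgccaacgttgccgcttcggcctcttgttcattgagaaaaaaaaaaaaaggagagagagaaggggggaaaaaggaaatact
Spred2, part of chr11:19924192-19924441, plus strand, the PEA3 type site on the opposite strand: gcttccgccctACTTCCTcctcctgttggc
Spred3, part of chr7:29168648-29168897, minus strand, the CIC octamer: cggagcagccttgatttttgTGAATGAAat

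The match in Spred2 lay 33 to 27 bases before the RefSeq start and that in Spred3 10 to 3 bases before it. These RefSeq starts lie inside the genes as GENCODE places them. There, Spred2 begins at 19924375 on the plus strand and Spred3 at 29170411 on the minus strand. Both matches are thus downstream of the GENCODE starts. Over the 32851 promoter windows of the table, TGAATGAA was held by 1.08%, TGAATGGA by 1.01%, AGGAAGT by 7.69%, TGANTCA by 6.75% and TTCNNNGAA by 7.02%. The windows of Spry1 and Spry2 were 62.4% G and C each, that of Spred1 70.8%, and those of the 2 Etv5 starts 71.2% and 62%. The bases checked after the Spred1 start and after the Etv5 start at 62% were not found in GENCODE transcripts of these genes. Those starts are therefore less certain. The windows of Spred2 and Spred3, which did not pass the test, were 56% and 55.6%, and the median over the table was 52.4%. A match is a description of letters, and its absence says only that these letters are not in the window.

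Among the Sprouty genes, Spry2 had the lowest adjusted p. Spry2 (ENSMUSG00000022114.5, chromosome 14, 105891947 to 105896819, minus strand, GRCm38) encodes the Sprouty protein best known for holding CBL and GRB2. CML replicates 1, 2 and 3 had 4.77, 5.03 and 6.07 CPM of Spry2, against 13.4, 13.7 and 17.3 CPM in WT replicates 1, 2 and 3. The groups did not overlap, and the lowest WT library was above the highest CML library by more than the whole range of the CML libraries. Spry2 thus had a log2 fold change of -1.48 with an SE of 0.19 (adjusted p = 1.70e-04, edgeR), a fold of 0.36. The call was kept in all 15 alternative fits, in which the log2 fold change ran from -1.59 to -1.36.

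Spry1 (ENSMUSG00000037211.12, chromosome 3, 37639947 to 37644598, plus strand) encodes a Sprouty protein known for its part in kidney development and in quiescent muscle stem cells of the mouse. It was at 1.44, 2.92 and 1.56 CPM in the CML libraries and at 4.48, 5.93 and 8.03 CPM in the WT libraries. Every CML library was below every WT library. Its log2 fold change was -1.65 (SE 0.32, adjusted p = 0.00341, edgeR), a fold of 0.32. These values rest on 88 counts over the CML libraries and 298 over the WT libraries. An antisense gene model, Gm42922, covers 24.4% of the exon length of Spry1; it held 3 counts in CML and 7 in WT. Without one library or another the log2 fold change ran from -2.02 (CML replicate 2 left out) to -1.41 (WT replicate 3 left out), and the call was kept in all 15 alternatives.

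Spry4 (ENSMUSG00000024427.7, chromosome 18, 38586247 to 38601415, minus strand) encodes a further Sprouty inhibitor and is a common transcriptional readout of ERK activity. It was at 1.57, 4.16 and 2.88 CPM in the CML libraries, against 5.79, 5.81 and 4.80 CPM in the WT libraries. CML replicate 2 came near to WT replicate 3 without reaching it, and CML replicate 1 was far below. With a log2 fold change of -0.94 (SE 0.31) it missed the threshold at an adjusted p of 0.0510 (edgeR). It passed in 6 of 15 alternatives, among them the fit without CML replicate 2 (log2 fold change -1.30, adjusted p = 0.0126) and the DESeq2 Wald test (adjusted p = 0.0358), and its sign was negative in all 15. Spry3, the remaining family gene, was not analysed here.

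Of the SPRED genes Spred1 was the most abundant. Spred1 (ENSMUSG00000027351.14, chromosome 2, 117121374 to 117182279, plus strand), whose human counterpart is mutated in Legius syndrome, encodes a protein that binds neurofibromin. It was at 183, 277 and 233 CPM in the CML libraries and at 362, 352 and 273 CPM in the WT libraries. CML replicate 2 lay above WT replicate 3, so the groups overlapped. The log2 fold change of -0.51 (SE 0.16) passed narrowly, at an adjusted p of 0.0467 (edgeR). It was called in 7 of 15 alternatives. Leaving out CML replicate 1 gave an adjusted p of 0.112, and leaving out CML replicate 3 gave 0.124. The fits that left out WT replicate 1 or 2 gave 0.145 and 0.158. The call was also lost with library totals as the only scaling (log2 fold change -0.41, adjusted p = 0.0734), with limma-voom (0.0534), with a minimum mean of 50 counts (0.0549) and with a non-robust fit (0.0519).

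Spred2 (ENSMUSG00000045671.17, chromosome 11, 19924375 to 20024026, plus strand), an inhibitor that is ubiquitous in mouse tissues, was at 14.3, 22.6 and 20.7 CPM in the CML libraries. In the WT libraries it was at 25.1, 24.3 and 25.1 CPM. No CML library reached the lowest WT library, but the WT libraries were almost equal while those of CML differed by more than the distance between the groups. The log2 fold change was -0.37 (SE 0.17, adjusted p = 0.141, edgeR) and was called in 0 of 15 alternatives. Spred3 (ENSMUSG00000037239.8, chromosome 7, 29158829 to 29170411, minus strand), a SPRED member with a narrower tissue range, was at 5.21, 4.30 and 5.76 CPM in the CML libraries against 4.60, 5.30 and 5.48 CPM in the WT libraries. Those values interleave, and the log2 fold change was -0.0075 (SE 0.21, adjusted p = 0.987, edgeR). Its sign was positive in 5 of 15 alternatives, among them library totals alone (0.089) and a minimum mean of 50 counts (0.0084). Exons of the antisense gene Ggn cover 3.25% of the Spred3 exon length, and Ggn held 29 counts in CML and 13 in WT.

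Of the 3 PEA3 genes, Etv4 and Etv5 fell. Etv4 (ENSMUSG00000017724.14, chromosome 11, 101769742 to 101785371, minus strand), a transcription factor that is induced downstream of ERK in development and in tumours, was at 0.56, 1.46 and 1.25 CPM in the CML libraries. It was at 4.78, 6.44 and 5.61 CPM in the WT libraries. All CML values lay far below all WT values. The log2 fold change, -2.36 with an SE of 0.33, was the largest in size of the 8 genes (adjusted p = 3.37e-04, edgeR), a fold of 0.19. Etv4 had 9 counts in CML replicate 1 and 20 in each other CML library, below or near the filter at about 10 counts, so it entered the test through the WT libraries, which held 272 counts together. The log2 fold change ran from -2.62 (without CML replicate 2) to -2.05 (without CML replicate 1), and all 15 alternatives called it lower.

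Etv5 (ENSMUSG00000013089.15, chromosome 16, 22381309 to 22439719, minus strand), known for its role in the self-renewal of mouse spermatogonial stem cells, was at 16.9, 32.8 and 19.9 CPM in the CML libraries. The WT libraries held 49.7, 57.6 and 47.6 CPM. The groups did not overlap, with CML replicate 2 nearest to WT. The log2 fold change was -1.16 (SE 0.22, adjusted p = 0.00669, edgeR), a fold of 0.45, and all 15 alternatives called it lower, with a highest adjusted p of 0.0454 (without WT replicate 1). Etv1, the other gene of the PEA3 group, was near 0 throughout: the CML libraries had 0.56 ± 0.32 CPM and the WT libraries 0.56 ± 0.40 CPM (SD, n = 3 each). Its log2 fold change was -0.018 (SE 0.65, adjusted p = 0.989, edgeR), with 0 of 1 family gene called by DESeq2 or limma-voom. In all, every CML library lay below every WT library for 6 of the 8 genes, a pattern held by 16.5% of all tested genes, while the opposite pattern was held by 18.5% of all tested genes and by no member.

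**Figure D2:**
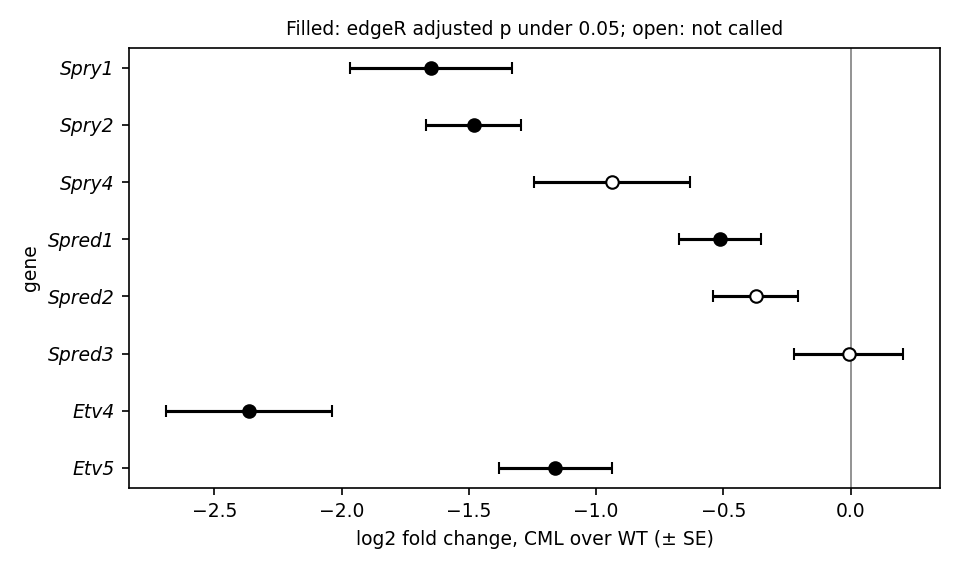
Log2 fold changes (CML over WT) of the 8 genes with their SE, filled where the edgeR adjusted p was under 0.05. All 8 points are at or left of 0, from -2.36 for Etv4 to -0.0075 for Spred3.

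**Figure D3:**
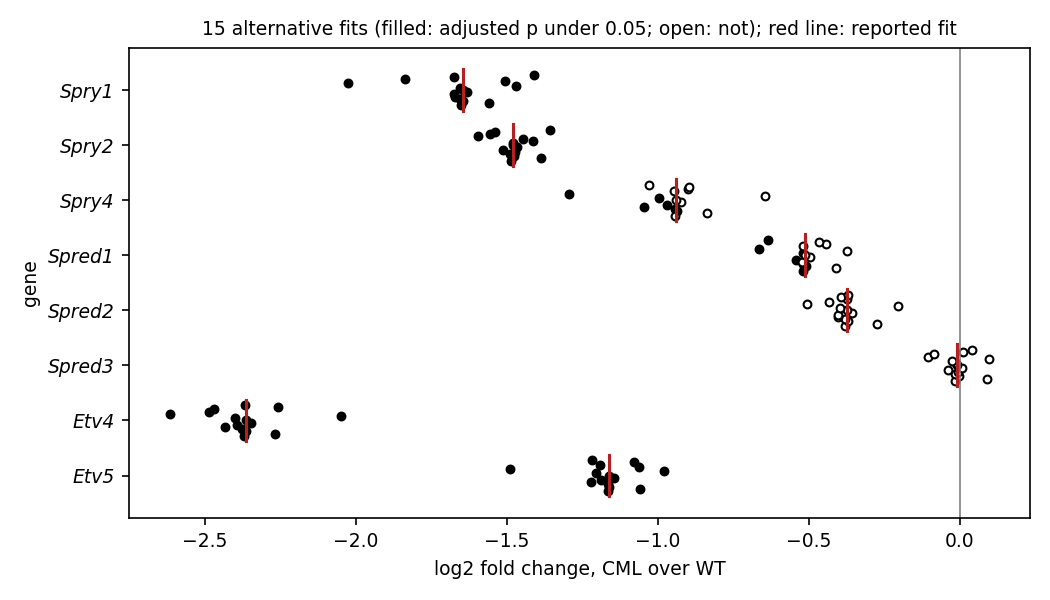
Log2 fold changes (CML over WT) of the 8 genes in each of 15 alternative fits (points, filled where the adjusted p was under 0.05) and in the reported fit (red line). Etv4, Etv5, Spry1 and Spry2 are filled in all 15, Spry4 in 6 and Spred1 in 7, and Spred3 lies on both sides of 0.

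The CML libraries were not alike. CML replicate 1 was the lowest CML library for 7 of the 8 genes and CML replicate 2 the highest for 6. How many of all tested genes share this order was not computed. Kit and the summed mast cell markers, given below, had it too. On the log2 scale, relative to the WT mean, Etv4 was at -3.10, -1.87 and -2.08 in CML replicates 1, 2 and 3, and Etv5 at -1.61, -0.66 and -1.37. Spry4 was at -1.74, -0.39 and -0.90. Spry2 was the most even of the members that fell, at -1.61, -1.54 and -1.27. The coefficient of variation over the CML libraries was 13% for Spry2, against 41.4% for Spry1, 45.1% for Spry4, 42.9% for Etv4 and 36.4% for Etv5. Over the WT libraries it was 14.8% for Spry2, 29.05% for Spry1, 10.6% for Spry4, 14.8% for Etv4 and 10.2% for Etv5. That of Spry2 was thus slightly higher in WT than in CML. Etv5 had 269 to 449 counts in each CML library, and Etv4 9 to 20.

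Levels of different genes were compared per kilobase of merged exon length (RPKM, from TMM-scaled CPM). Spred1 was first in both groups, at 34.0 ± 6.97 RPKM in CML and 48.5 ± 7.21 RPKM in WT (SD, n = 3 each), above 90.3% of the tested genes in CML and 93.0% in WT. Etv5 was next, at 5.65 ± 2.05 RPKM in CML and 12.6 ± 1.29 RPKM in WT. In CML the order went on with Spred2 (4.16 RPKM), Spry2 (2.54), Spred3 (0.82), Spry1 (0.68), Spry4 (0.60) and Etv4 (0.35). In that group the values of Etv5 and Spred2 overlapped, as did those of Spred3 and Spry1, of Spry1 and Spry4 and of Spry4 and Etv4. In WT it went on with Spry2 (7.09 RPKM), Spred2 (5.38), Spry1 (2.12), Etv4 (1.81), Spry4 (1.15) and Spred3 (0.82), and only Spry1 and Etv4 overlapped among neighbours. Etv4 was thus the sixth gene in WT and the last in CML, and Spred3 the last in WT and the fifth in CML.

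**Figure D4:**
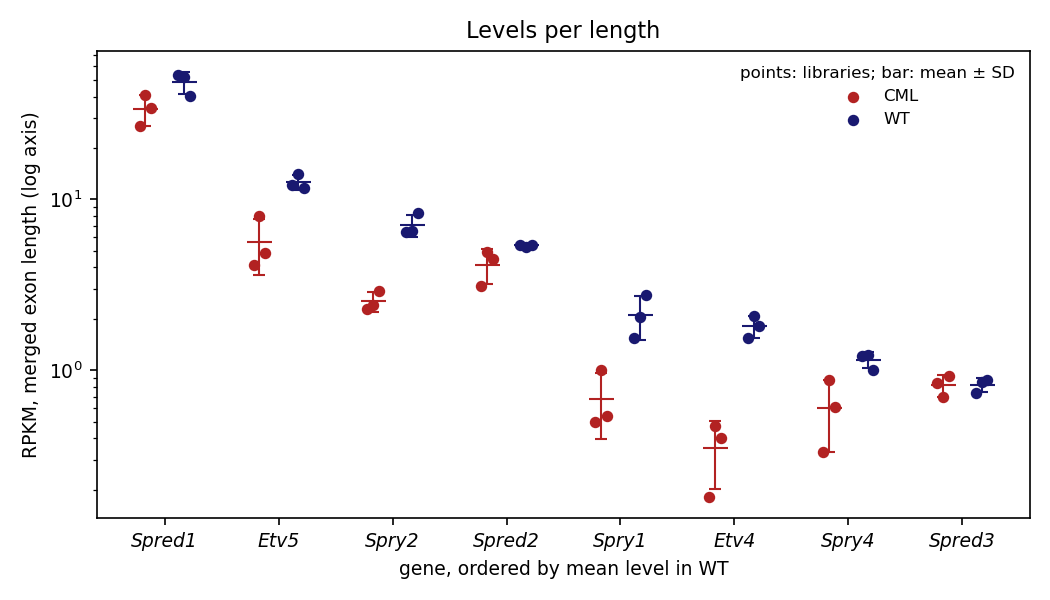
Level per length (RPKM, log axis) of each gene, ordered by its mean in WT; points are libraries and bars the mean ± SD of 3. Spred1 stands apart from the rest in both groups, and Etv4 has the lowest mean in CML, 0.35 RPKM, against 1.81 RPKM in WT.

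Summed per family, the Sprouty genes came to 3.82 ± 0.62 RPKM in CML and 10.4 ± 1.52 RPKM in WT (SD, n = 3 each). The SPRED genes came to 39.0 ± 7.82 RPKM in CML and 54.7 ± 7.12 RPKM in WT, and the PEA3 genes Etv4 and Etv5 to 6.00 ± 2.18 RPKM in CML and 14.4 ± 1.5 RPKM in WT. Spry2 made up most of the Sprouty sum, 67.1 ± 9.50% in CML and 68.5 ± 1.57% in WT. Spred1 made up 87.2 ± 0.79% of the SPRED sum in CML and 88.5 ± 1.81% in WT. The composition of the PEA3 sum differed between the groups: Etv4 gave 4.24, 5.56 and 7.68% of it in the CML libraries and 11.3, 12.9 and 13.5% in the WT libraries, with no overlap. In bulk RNA, fewer cells that express a gene and less RNA per cell cannot be told apart.

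The rest of the cascade was read from lists of pathway genes. Over all tested genes 10.2% were called higher and 7.2% lower in CML, and each list count below is to be read beside these shares. They hold for the adjusted p of edgeR. List counts at an unadjusted p have no such share beside them here. Of 15 tested genes known as early or late outputs of ERK, the members left out, 6 rose and 1 fell in CML, with a median log2 fold change of 0.44. Junb, an AP-1 subunit, was at 34.1, 42.1 and 36.6 CPM in the CML libraries and 13.4, 12.4 and 16.6 CPM in the WT libraries (log2 fold change 1.41, SE 0.15, adjusted p = 4.35e-05, edgeR). Egr1, a zinc finger factor of the serum response, had 22.0, 26.9 and 25.6 CPM in the CML libraries and 9.38, 10.9 and 9.78 CPM in the WT libraries (log2 fold change 1.31). Ier3, an early gene linked to cell survival, rose by 1.06 on the log2 scale, and Dusp5, a nuclear ERK phosphatase, by 0.84. Fos and Ier2, chosen after their values were seen, rose by 2.51 and 0.44. Ier2 was not called when CML replicate 2 or 3 was left out (adjusted p of 0.0756 and 0.0525), nor when WT replicate 1 or 2 was (0.0608 and 0.124).

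The single gene of that list that fell was Dusp6, the cytoplasmic ERK phosphatase. It was at 15.4, 34.3 and 21.8 CPM in the CML libraries against 52.1, 64.0 and 65.2 CPM in the WT libraries, without overlap (log2 fold change -1.35, SE 0.26, adjusted p = 0.00988, edgeR). As with most Sprouty and PEA3 genes, its lowest value was in CML replicate 1 and its highest CML value in replicate 2. The call was lost without WT replicate 1 (log2 fold change -1.45, adjusted p = 0.0532). Dusp4, a nuclear phosphatase chosen after its values were seen, had a mean of 15.9 ± 5.16 CPM over the CML libraries and 23.7 ± 3.05 CPM over the WT libraries, and passed only when CML replicate 2 was left out (adjusted p = 0.102, or 0.0334 without it). Myc, Mcl1, Dusp2, Plaur, Ccnd1, Fosb and Egr3 did not pass.

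**Figure D5:**
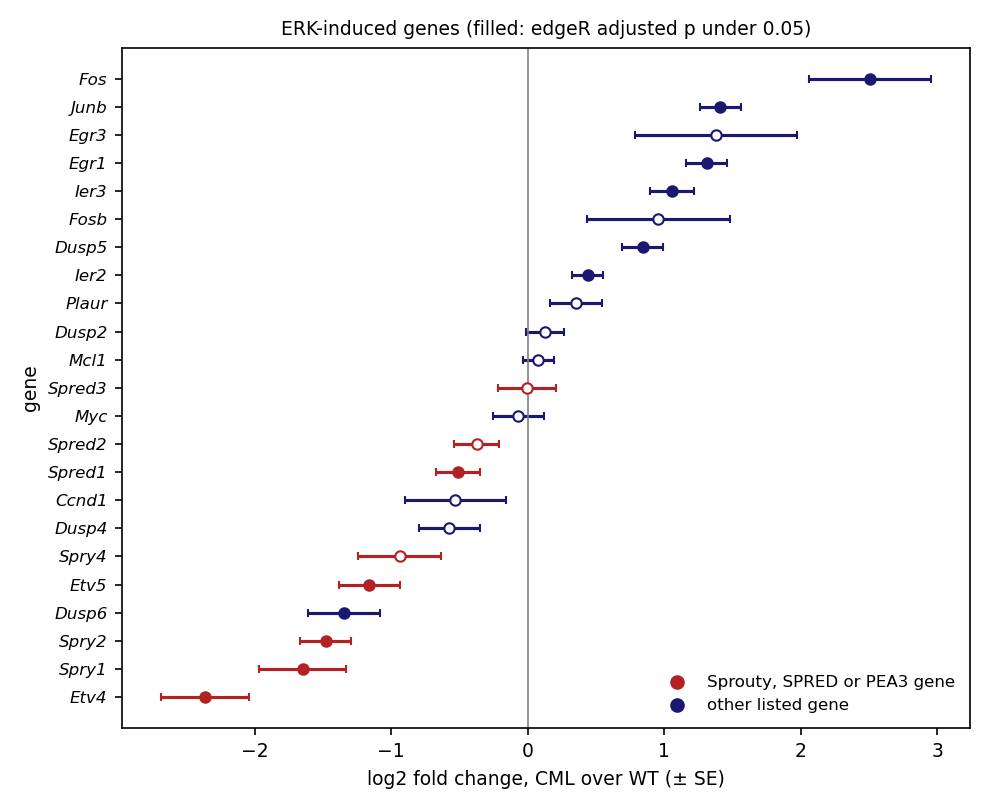
Log2 fold changes (CML over WT, ± SE) of the 15 tested ERK-induced genes (dark blue) and the 8 Sprouty, SPRED and PEA3 genes (red), filled where the edgeR adjusted p was under 0.05. Fos, Junb, Egr1, Ier3, Dusp5 and Ier2 are filled and right of 0, while Dusp6, Spry1, Spry2, Spred1, Etv4 and Etv5 are filled and left of it.

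Among 13 tested receptor tyrosine kinases and ligands 4 rose and 3 fell (median log2 fold change 0.078). Pdgfrb, a receptor for platelet-derived growth factor, was at 111, 94.3 and 112 CPM in the CML libraries and 24.4, 30.4 and 29.8 CPM in the WT libraries (log2 fold change 1.91, SE 0.13). The M-CSF receptor gene Csf1r rose by 2.38 on the log2 scale. Erbb3 and Met, receptors for neuregulin and for hepatocyte growth factor, fell by 1.84 and 1.08. Fgfr1, a fibroblast growth factor receptor whose signal Sprouty proteins limit, was chosen after its values were seen. It was at 7.66, 18.5 and 12.9 CPM in the CML libraries and at 0.24, 1.33 and 1.49 CPM in the WT libraries (log2 fold change 3.67, SE 0.55, adjusted p = 0.00399, edgeR). The WT values of Fgfr1 rest on 4, 21 and 24 counts. Kit had 203, 402 and 321 CPM in the CML libraries and 285, 302 and 290 CPM in the WT libraries, so that its CML libraries enclosed those of WT.

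Of 16 tested adaptors and exchange factors 2 rose and 1 fell, near the shares of 10.2% and 7.2% over all tested genes. Rasgrp1, a RAS exchange factor, was at 3.14, 11.3 and 6.07 CPM in the CML libraries and at 0.90, 1.14 and 1.37 CPM in the WT libraries (log2 fold change 2.58). Rasgrp4, the exchange factor found in mast cells, rose by 0.96. Its adjusted p was 0.0716 when CML replicate 2 was left out and 0.0548 when WT replicate 2 was. Gab1, a docking protein, fell by 0.74. Its adjusted p was 0.0527 or 0.0926 when CML replicate 2 or 3 was left out, and 0.0784 when WT replicate 2 was. Among 20 tested genes of RAS, RAF, MEK, ERK and the kinases they drive, 4 rose. Rras2, a RAS relative, rose by 0.74 and Rps6ka2, an ERK-activated kinase, by 1.80. Rps6ka2 had only 19, 22 and 25 counts in the CML libraries and 9, 6 and 5 in the WT libraries. It thus entered the test through the CML libraries. Mknk1 and Mapk3, which encode an ERK substrate and ERK1, had log2 fold changes of 0.47 and 0.42. The call of Mapk3 was lost in 5 of the 6 fits that leave out a library, with adjusted p-values up to 0.150, and that of Mknk1 in 4 of 6, up to 0.0796. Mapk3 kept the call when WT replicate 3 was left out, and Mknk1 when WT replicate 3 or CML replicate 1 was.

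Other inhibitors of the cascade moved in both directions. Of 21 tested, 4 rose and 2 fell (median log2 fold change -0.028). Dok2, an adaptor that restrains RAS in blood cells, was at 144, 113 and 120 CPM in the CML libraries and at 58.2, 65.8 and 75.9 CPM in the WT libraries (log2 fold change 0.92, SE 0.13). Errfi1, a feedback inhibitor of EGF receptors, rose by 1.05. Its adjusted p was 0.0691 when CML replicate 2 was left out and 0.0633 when WT replicate 1 was. Dusp5 rose, as above, and Dusp6 and Rasa1, a GTPase-activating protein chosen after its values were seen, had log2 fold changes of -1.35 and -0.49. The call of Rasa1 ended when CML replicate 2 or 3 was left out (0.0564 and 0.064), and when WT replicate 1 or 2 was (0.0592 and 0.121). Of 14 tested partners of Sprouty and SPRED proteins 0 rose and 1, Dusp6, fell (edgeR; 0 rose and 4 fell at an unadjusted p under 0.05, and DESeq2 called 0 and 3, limma-voom 0 and 2). Nf1, which encodes neurofibromin, had a log2 fold change of -0.15 (adjusted p = 0.541, edgeR) and Cbl one of 0.23 (adjusted p = 0.273). Neither passed, and both were chosen after their values were seen.

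Of 11 regulators of CIC and of PEA3 protein turnover 3 rose and 0 fell (edgeR; 3 and 0 at an unadjusted p under 0.05, and DESeq2 and limma-voom each called 3 and 0). Trib2, a pseudokinase that guides the ubiquitin ligase COP1, was at 1.69, 6.13 and 4.57 CPM in the CML libraries and at 0.48, 0.32 and 1.12 CPM in the WT libraries (log2 fold change 2.67). It missed the threshold without WT replicate 1 (adjusted p = 0.0787, edgeR). With 8, 5 and 18 counts in the WT libraries, Trib2 entered the test through the CML libraries. Atxn1, a CIC partner, rose by 0.46 and Dda1 by 0.42. The adjusted p of Atxn1 was 0.104 or 0.0901 when CML replicate 2 or 3 was left out, and 0.104 when WT replicate 2 was. Dda1 was called in 1 of the 6 fits that leave out a library, the one without WT replicate 3, and missed at adjusted p-values up to 0.194 in the rest. It also missed without the low-count filter (adjusted p = 0.0554, edgeR). Among 16 tested ETS factors outside the PEA3 group 2 rose and 1 fell, near the shares of 10.2% and 7.2% over all tested genes. Ets1 was at 28.4, 39.2 and 29.7 CPM in the CML libraries and at 6.99, 5.56 and 9.34 CPM in the WT libraries (log2 fold change 2.15, SE 0.20). Spi1, the myeloid factor PU.1, had a log2 fold change of 0.43 and Erg, a stem cell factor, of -0.39. Both were called without WT replicate 3 and in no other fit that leaves out a library, with adjusted p-values up to 0.216 and 0.156. With all libraries kept, Spi1 narrowly missed with RLE size factors (adjusted p = 0.0504) and with limma-voom (0.0524). It also missed without the low-count filter (0.0604) and with the non-robust fit (0.0526). Erg missed with library totals alone (0.133).

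The genes whose profiles over the 6 libraries were nearest to those of Spry2, Spred1 and Etv4 were found by the root mean square difference of log2 CPM centred per gene, among 11229 genes with a mean of at least 5 CPM. They were Golm1 (0.11), Rnf144a (0.14) and Clec4d (0.14) for Spry2, and Atp10d (0.043), Gm16589 (0.060) and Pank1 (0.070) for Spred1. Those nearest to Etv4 were Slc22a3 (0.10), Hbb-bs (0.18) and Hbb-bt (0.19), the last a pair of beta globin genes with near-identical sequences, whose counts are uncertain for that reason. Slc22a3, an organic cation carrier, was at 16.8, 33.8 and 27.8 CPM in the CML libraries and at 104, 154 and 138 CPM in the WT libraries. Hbb-bt had 15.1, 51.7 and 39.6 CPM in the CML libraries and 157, 177 and 165 CPM in the WT libraries. The measure includes the group difference itself, and it carries no test.

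Totals of the libraries ran from 13323469 to 15433481 counts in CML and from 15930585 to 17926847 in WT, and no pair of libraries agreed within sampling noise. The genes behind the sort label were read in every library. Slamf1, which encodes CD150, had 11.2, 19.2 and 12.1 CPM in the CML libraries and 23.6, 31.8 and 18.7 CPM in the WT libraries (log2 fold change -0.80, adjusted p = 0.0470, edgeR). Ly6a, the Sca1 gene, did not pass, with 65.3 to 172 CPM in CML and 40.0 to 64.2 CPM in WT. Markers of mast cells stood far apart: 7 of 11 tested rose and 0 fell (edgeR; 11 and 0 at an unadjusted p under 0.05, and DESeq2 and limma-voom each called 10 and 0). The 12 listed mast cell genes summed to between 2076 and 7202 CPM in CML and between 171 and 334 CPM in WT. CML replicate 1 had the lowest and CML replicate 2 the highest of the CML sums. Among the mast cell genes that rose, Tpsab1 had 1, 0 and 4 counts in the WT libraries. It entered the test through the CML libraries. Of 10 tested monocyte and macrophage markers 5 rose and 0 fell, with sums of 364 to 434 CPM in CML and 240 to 302 CPM in WT; C1qa was at 0 in all but 1 library. Among 8 tested megakaryocyte markers 1 rose and 2 fell, with sums of 275 to 392 CPM in CML and 330 to 368 CPM in WT. Erythroid markers summed to 144 to 258 CPM in CML and 411 to 536 CPM in WT, with 1 of 6 tested higher and 2 lower. The 1 higher, Klf1, had 3, 0 and 4 counts in the WT libraries and entered the test through the CML libraries. Dendritic markers summed to 46.4 to 159 CPM in CML and 22.5 to 47.3 CPM in WT (3 of 7 tested higher, 0 lower). Of the 3, Batf3 and Fscn1 had 3, 1 and 0 and 2, 3 and 4 counts in the WT libraries. Both entered the test through the CML libraries. Siglech, with 9 counts over the CML libraries and 37 over the WT libraries, was not tested. The counts of calls thus depend in part on the filter. Neutrophil markers, with 0 of 8 tested called in either direction (edgeR; 1 higher and 1 lower at an unadjusted p under 0.05, DESeq2 and limma-voom 0), summed to 157 to 261 CPM in CML and 128 to 253 CPM in WT. Of 12 lymphoid markers 3 had enough counts to be tested and 1 rose, with sums of 71.4 to 88.0 CPM in CML and 62.1 to 82.5 CPM in WT. The T cell marker Cd3e was at 0 in 4 libraries. Of 10 endothelial and stromal markers 4 could be tested, 1 (Pdgfrb) rose and 1 fell, with sums of 206 to 242 CPM in CML and 102 to 144 CPM in WT, and Col1a1 was at or under 0.13 CPM in every library. The part of these cell types in the values of the Sprouty, SPRED and PEA3 genes was not tested.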

How the data were processed

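Bulk RNA was sequenced from 3 CML and 3 WT mouse libraries; groups and replicate numbers were read from the titles. The authors deposited estimated counts per gene, not scaled, of which 33.9% to 36.0% per library were not whole numbers. The submitters' processing notes name mm10, STAR 2.7.3a and Partek 8.0, without roles or order. Neither the annotation, nor the strandedness, nor the handling of shared reads is stated there, so overlapping and near-identical genes are uncertain.

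Counts were rounded, genes were filtered with filterByExpr (minimum count 10), and 16221 genes were fitted with the quasi-likelihood test of edgeR 4.0.16 in R 4.3.3. It used TMM scaling, robust dispersions and group as the only term, two-sided, and p-values were Benjamini-Hochberg adjusted over all tested genes. SEs followed from each log2 fold change and its F value. The pipeline was tested on simulated data. DESeq2 1.42.0 and limma 3.58.1 (voom) served as alternatives, beside other scalings, filters, a replicate block and fits leaving out each library. Positions and merged exon lengths came from GENCODE M21 on GRCm38, to which mm10 corresponds; 28951 of 29872 symbols had an exact match.

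The members, the lists and the pathway genes were chosen with earlier results of these data known. Named genes were the 8 members, Kit, up to 4 called genes per pathway list with the lowest adjusted p (or the lowest p where none was called), and the 3 most alike profiles per family. Genes outside that rule are marked as chosen later. Protein identity between family members was not analysed here, and a result within the pathway lists is not reported here. Library totals were 13323469 to 17926847 counts.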

Additional observations from a re-analysis of the deposited data

How the results depend on the processing

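The 15 alternatives were 3 scalings, 2 other tests, 2 filters, a non-robust fit, a replicate block and 6 fits that leave out a library. Spry1, Spry2, Etv4 and Etv5 were called lower in each, Spry4 in 6, Spred1 in 7, Spred2 and Spred3 in 0. Members called lower numbered 5 in the reported fit and 4 to 6 in the alternatives, and members called higher 0 in each. Genes called over the whole table numbered 2820, and 2308 to 3216 in the alternatives that keep all libraries. They fell to 1861 without CML replicate 2, 1771 without CML replicate 3, 1857 without WT replicate 1 and 1466 without WT replicate 2. They rose to 3169 without CML replicate 1 and to 4122 without WT replicate 3. All of these fits had fewer libraries. The share of calls that were higher in CML was 58.6%, or 73.8% with library totals alone, 69.0% without WT replicate 2 and 49.0% without WT replicate 3. The sign of Spred3 turned with library totals alone (0.089), a minimum mean of 50 counts (0.0084) and when CML replicate 2 (0.097), WT replicate 2 (0.011) or WT replicate 3 (0.040) was left out, with a lowest value of -0.11 over the fits that leave out a library. That of Etv1 turned with library totals alone (0.074), limma-voom (0.14), the replicate block (0.032) and when CML replicate 1 (0.40), WT replicate 2 (0.45) or WT replicate 3 (0.15) was left out (lowest -0.51). That of Kit turned without CML replicate 2 (-0.16; highest 0.30). The causes were not tested. Over all tested genes, same-numbered libraries did not deviate together (correlations of deviations -0.021, -0.052 and 0.0087). These values cannot exclude a pairing that acts on some genes only, and the labels state none. With the replicate block 2807 genes and 6 members were called, 0 of these members higher. With that block the SE of Etv5 was 0.153 in place of 0.222, and that of Spred3 0.231 in place of 0.213. For 44 other named genes 579 of 657 values kept direction and call. Depth limits Etv4 and Spry1 most, with 49 and 88 counts over the CML libraries.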
